A study of Mus musculus with 19 samples.

Results

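The genes of glucose uptake, glycolysis, pyruvate entry and the citrate cycle were followed through 4 populations of sorted mouse CD4 T cells. A list of 39 enzymes and transporters was matched by gene name to the array's probes, which gave 60 of the 55681 probes (Pkm and its older name Pkm2 were taken as one gene). Of these genes 19 carry glucose from the cell surface to lactate, and 15 belong to the citrate cycle or to its cytosolic counterparts. The other 5 belong to the pyruvate dehydrogenase step between them, called pyruvate entry below. The cells were sorted from spleen and lymph nodes, and all mice (adult females, C57Bl/6 background) carried 2 reporters, a green one for IL-2 (IL-2-GFP) and a red one for Foxp3 (FOXP3mRFP), so that no group was free of the transgenes. The groups were GFP+RFP+ cells, named regulatory and IL-2p by the labels (4 arrays, replicates 1, 3, 4 and 5), GFP+RFP- cells, named IL-2p (5 arrays), GFP-RFP+ cells, named regulatory (5 arrays), and GFP-RFP- cells with neither name (5 arrays). The design text speaks of 5 replicates in each group. A cell type tag calls all 19 samples conventional, whereas the source names give the RFP+ samples as regulatory. Samples are grouped below by reporter colour alone. The sample titles number the replicates M1 to M5 with the same numbers across groups, and the main model does not pair them. Nothing in the labels says that each replicate is another animal. The p-values therefore rest on sample-to-sample spread alone, and that spread may be technical.

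Glycolysis splits glucose in the cytosol, in a preparatory phase that spends ATP and a payoff phase that returns it, and ends in pyruvate, which lactate dehydrogenase can turn into lactate. Alternatively the pyruvate dehydrogenase complex feeds pyruvate into the citrate cycle as acetyl-CoA, and pyruvate dehydrogenase kinases switch that complex off. Conventional T cells raise glucose uptake and glycolysis when they are activated, whereas regulatory T cells are known for relying more on mitochondrial oxidation, and IL-2 is the main growth factor of T cells.

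Each array measured amplified, Cy3-labelled cDNA with 1 colour. A level is given here as log2 signal, the log2 of the background-subtracted spot intensity minus the log2 of that array's 75th percentile over the 6612 probes that the scanner software called well above background on all 19 arrays. A value of 0 is therefore the 75th percentile, and a probe called well above background is described as detected. Differences were tested with 1 limma model over 20620 genes, each represented by its brightest probe among those detected on at least 4 arrays, and calls were made at an adjusted p under 0.05 (Benjamini-Hochberg, over all 20620 genes). Precision is limited by the number of arrays in each group.

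Probes of 1 gene did not always give the same answer, and the sequences below are shown because results turn on them. The Suclg2 probe, the only one of the 60 that represents a called gene, lies at chr6:95424712-95424771 on the minus strand of the mm9 build used by the files. The first Dld probe lies at chr12:32018291-32018350, minus strand, and the first Tpi1 probe at chr6:124761923-124761982, minus strand. The brightest Hk1 probe (chr10:61731230-61731288, minus strand) carries the polyadenylation signal AATAAA at 2 places, set in capitals, and another Hk1 probe lies at chr10:61732717-61732776 on the same strand. Of the Suclg2 probe bases 1 to 30 are printed, of the brightest Hk1 probe bases 11 to 40, and the others are whole.
Suclg2: tgtgcatacatacagtatttaaagccagat
Dld: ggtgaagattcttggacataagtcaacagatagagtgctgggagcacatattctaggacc
Tpi1: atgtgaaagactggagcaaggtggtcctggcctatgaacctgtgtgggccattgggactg
Hk1, brightest probe: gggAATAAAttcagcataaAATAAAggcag
Hk1, other probe: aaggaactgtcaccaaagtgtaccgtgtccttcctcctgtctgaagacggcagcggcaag

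The letters AATAAA, the usual signal for polyadenylation near the end of a transcript, stood in 14 of the 60 member probes (23.3%), against 5602 of all 55681 probes (10.1%). The reverse complement TTTATT stood in 4 member probes (6.67%), against 3.74% of all probes. Of the 14 member probes with AATAAA, 7 were detected on all 19 arrays, and of the 43 with neither motif, 11 were (25.6%). Among all probes on the array 12.5% of those with AATAAA and 11.8% of those with neither were detected on all arrays. The 3 Gpi1 probes with the motif overlap almost wholly, as do a pair of Gapdh probes, so these counts are a description of the probe set and carry no test.

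The arrays differed in strength before any single gene was considered. Probes were detected at 32.2% ± 4.94 in GFP+RFP+ cells (SD, n = 4), 36.9% ± 4.29 in GFP+RFP- cells, 29.6% ± 6.78 in GFP-RFP+ cells and 40.6% ± 2.86 in GFP-RFP- cells (SD, n = 5 each). The 75th percentile of intensity averaged 5270 ± 843, 12800 ± 3020, 7020 ± 3110 and 14900 ± 2300 in the same 4 groups. Detection was 11.0 percentage points lower in GFP-RFP+ than in GFP-RFP- cells (exact two-sided permutation test, p = 0.024, adjusted p = 0.063 over 8 such tests). The 75th percentile, to which every log2 signal is set, differed by -7910 in the same comparison. Between GFP+RFP+ and GFP+RFP- cells it differed by -7490 (same permutation test, p = 0.016 and adjusted p = 0.063 for each of these percentile differences). The arrays with under 30% of probes detected were replicate 1 of GFP+RFP+ cells (26.08%) and replicates 1 (22.01%) and 4 (24.58%) of GFP-RFP+ cells, and results without these 3 are given where they differ. Foxp3 itself had a log2 difference of 2.55 ± 1.10 (SE) between GFP-RFP+ and GFP-RFP- cells (adjusted p = 0.19) and 1.51 ± 1.17 between GFP+RFP+ and GFP+RFP- cells (adjusted p = 0.52). Il2 had 0.72 ± 1.95 between GFP+RFP- and GFP-RFP- cells (adjusted p = 1.00), so neither reporter gene was called by limma, while Gpr83, a receptor typical of regulatory T cells, was higher in GFP-RFP+ than in GFP-RFP- cells by 6.83 ± 1.47 (adjusted p = 0.033). Gpr83 was not detected on any GFP-RFP- or GFP+RFP+ array, although GFP+RFP+ cells are also named regulatory. Only arrays of GFP-RFP+ and GFP+RFP- cells let it pass the filter of 4 arrays. Of the 7 regulatory T cell markers listed, 2 to 7 were detected per array in GFP-RFP+ cells and 3 to 6 in GFP-RFP- cells. Their summed signal was 3.01% to 269% of the array's 75th percentile in GFP-RFP+ cells, against 29.4% to 78.6% in GFP-RFP- cells. In GFP+RFP+ cells 3 to 6 of these markers were detected, with a sum of 27.8% to 133%. In GFP+RFP- cells 3 to 7 were detected, with a sum of 9.73% to 155%. Cd4 was detected on all 19 arrays, and 6 to 9 of 9 T cell identity genes were detected on each array. Signals of these 9 genes summed to 404% to 697% of the array's 75th percentile in GFP+RFP+ cells and 681% to 1290% in GFP+RFP- cells. The sums were 871% to 1770% in GFP-RFP+ cells and 820% to 992% in GFP-RFP- cells. In bulk RNA, fewer cells of a type and less RNA per cell cannot be told apart.

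Detection of the pathway genes was uneven along the pathway. Detection on all 19 arrays was found for 7 of the 19 glycolysis genes (36.8%), for 0 of the 5 pyruvate entry genes and for 4 of the 15 citrate cycle genes (26.7%). Together these are 11 of 39 genes (28.2%), or 32.4% of the 34 that were tested, against 27.5% of all genes tested. Of all probes 11.9% were detected on every array, and 50.5% passed the filter for testing. The 7 glycolysis genes were Hk1 (hexokinase 1, which traps glucose as its phosphate), Gpi1 (the isomerase after it), Aldoa (aldolase A, which splits the sugar), Gapdh (the oxidising step), Eno1 and Eno2 (enolases) and Pkm (pyruvate kinase). The 4 of the citrate cycle set were Aco1 (cytosolic aconitase, which doubles as an iron regulatory protein), Idh3b and Idh3g (subunits of NAD isocitrate dehydrogenase) and Mdh1 (cytosolic malate dehydrogenase). Another 5 members were seen on so few arrays that they were not tested: Slc2a3 (the transporter GLUT3), Ldhb (lactate dehydrogenase B) and Idh1 (cytosolic isocitrate dehydrogenase) on 3 arrays each, Hk2 (hexokinase 2) on 1, and Dlat (the E2 subunit of pyruvate dehydrogenase) on 0. Slc2a3, Ldhb and Idh1 had 0 detections among the 9 RFP+ arrays, and the 1 array with Hk2 was of GFP+RFP- cells. The 34 members that were tested include genes that passed the filter through 1 group only, so counts over them describe the genes that passed and not the pathway as a whole.

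**Figure D1:**
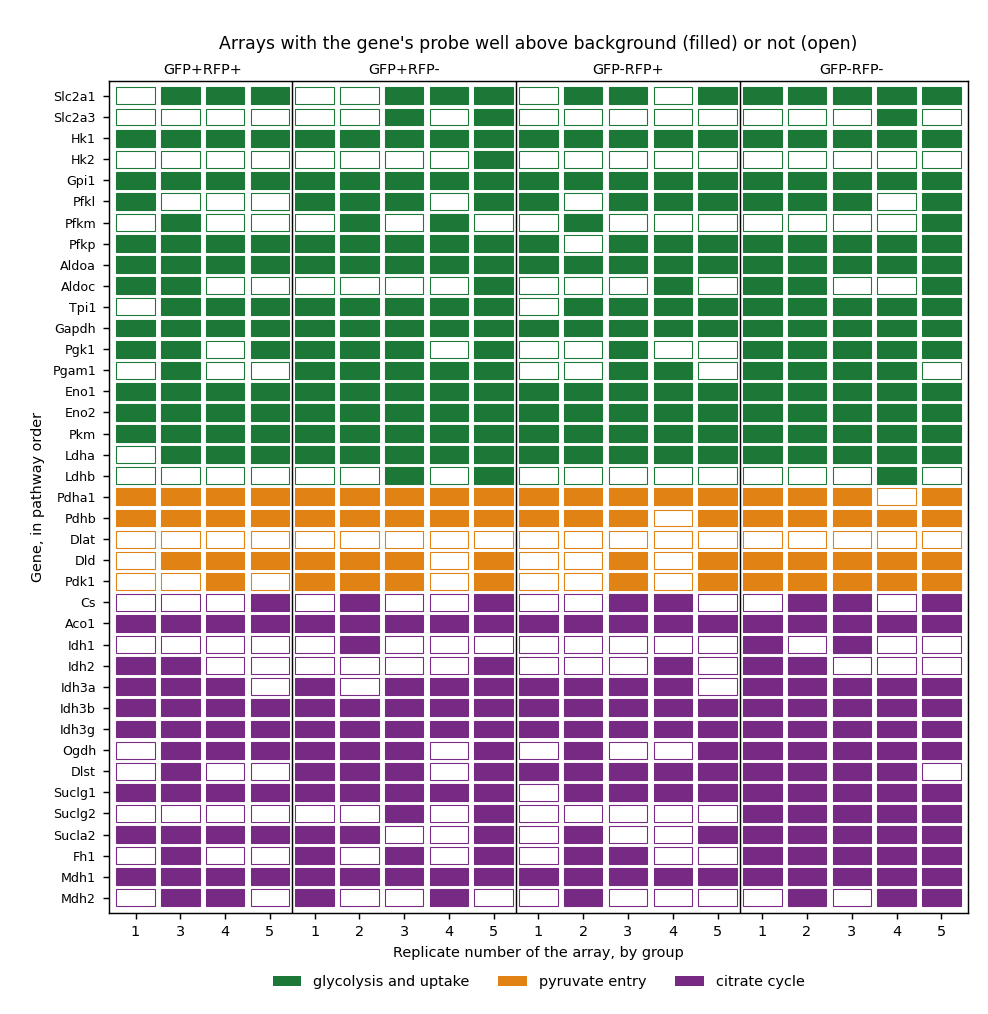
Detection of the 39 genes (rows, in pathway order) on the 19 arrays (columns, by group and replicate number); a filled cell means that the gene's brightest probe was well above background and an open cell that it was not. Hk1, Gpi1, Aldoa, Gapdh, Eno1, Eno2, Pkm, Aco1, Idh3b, Idh3g and Mdh1 are filled throughout, and Dlat is open throughout.

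Counted per array, 24.5 ± 3.87 of the 39 genes were detected in GFP+RFP+ cells (SD, n = 4, range 21 to 30) and 28.6 ± 4.67 in GFP+RFP- cells (SD, n = 5, range 22 to 35). The count was 23.2 ± 3.27 in GFP-RFP+ cells (range 18 to 27) and 31.4 ± 1.14 in GFP-RFP- cells (range 30 to 33, n = 5 each). The ranges of GFP-RFP+ and GFP-RFP- cells do not overlap, in the same direction as the share of all probes detected on these arrays, and the part that array-wide detection has in this was not tested. Of the 15 citrate cycle genes 6 to 11 were detected on GFP-RFP+ arrays and 12 to 14 on GFP-RFP- arrays, without overlap. Of the 19 glycolysis genes 10 to 14 and 14 to 15 were detected on the same arrays, which touch at 14. The GFP+ groups overlapped for both sets, with 11 to 15 glycolysis genes in GFP+RFP+ cells and 13 to 18 in GFP+RFP- cells, and 8 to 12 citrate cycle genes in GFP+RFP+ cells and 7 to 13 in GFP+RFP- cells.

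Many members were detected on some replicates of a group and missed on others. Over the 34 genes tested and the 4 groups, 73 of 136 combinations were detected on every array of the group, 61 on some arrays and 2 on no array. Both combinations with no detection were of Suclg2, one in GFP+RFP+ cells and the other in GFP-RFP+ cells. Detection on every array of the group was found for 14 of 34 genes in GFP-RFP+ cells, the fewest, and for 25 in GFP-RFP- cells, the most. The spread between replicates (SD within groups, log2) had a median of 2.01 over the 16 glycolysis genes tested and 3.11 over the 14 citrate cycle genes, against 1.67 over all 20620 genes. It was smallest for Hk1 (0.26) and Aldoa (0.36) and largest for Dlst (4.53), the E2 subunit of 2-oxoglutarate dehydrogenase, and Pfkl (5.17), the liver type of phosphofructokinase. Among genes detected on all 19 arrays the median was 0.69 for the 7 of glycolysis and 1.92 for the 4 of the citrate cycle.

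The first comparison asked how RFP+ cells, named regulatory by the labels, differ from RFP- cells where neither shows the green signal. Of the 34 members tested, 1 was called between GFP-RFP+ and GFP-RFP- cells, against 1.7% of all genes tested (351 of 20620, of which 254 were lower, 1.23%). That gene was Suclg2, the beta subunit of the GDP-forming succinate-CoA ligase, which makes succinate in the citrate cycle. In GFP-RFP+ cells its log2 signals were -9.88, -10.18, -9.11, -11.24 and -11.03, and its probe was not well above background on any of the 5 arrays. In GFP-RFP- cells they were -3.75, -6.10, -4.22, -2.16 and -1.59, all detected. Of its 7 detections 5 were in GFP-RFP- cells, so Suclg2 passed the filter of 4 arrays only through the group where it was high. The groups did not overlap, and Suclg2 was at least 42.3-fold lower in GFP-RFP+ cells (limma log2 difference -6.72 ± 1.52 SE, adjusted p = 0.037). "At least" sets the bright group's mean against the lowest signal that the dim arrays could still tell from background.

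The Suclg2 call was not kept under every setting. It was lost when any 1 of the 5 GFP-RFP- arrays was left out (adjusted p 0.052 to 0.082) and when replicate 1, 2 or 5 of GFP-RFP+ cells was left out (0.079, 0.079 and 0.073), although the log2 difference stayed between -7.36 and -6.23 with any 1 array left out. Without the 3 arrays of low detection it was -6.54 (adjusted p = 0.096), and with the share of probes detected added as a covariate -5.47 (adjusted p = 0.52). Within single slides, which hold 1 or 2 arrays of each group and can hardly give a call, the difference was -5.51, -6.05 and -9.54. In the other 2 groups the same probe was not well above background on any GFP+RFP+ array (-9.24, -10.55, -9.30 and -11). Among GFP+RFP- cells it was detected only on replicates 3 (-2.81) and 5 (-3.50), with -10.88, -11.40 and -11.13 on the others. Suclg1, the alpha subunit that pairs with Suclg2, was not called and differed by -3.99 ± 1.85 (limma, adjusted p = 0.21). Sucla2, the beta subunit of the separate ADP-forming ligase, was not called either (-2.08 ± 1.69, adjusted p = 0.49).

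Mdh1 and Fh1, also of the citrate cycle set, had small p-values without a call. Mdh1, which interconverts malate and oxaloacetate in the cytosol, was detected on all 19 arrays. Its log2 signals were -3.69, -4.78, -0.65, -6.92 and -4.41 in GFP-RFP+ cells, against -0.72, -0.58, -1.34, -0.85 and -1.43 in GFP-RFP- cells. All GFP-RFP+ arrays except replicate 3 were below every GFP-RFP- array, and the difference was -3.10 ± 0.82 (limma, adjusted p = 0.06). Fh1, fumarate hydratase, was detected on 2 of 5 GFP-RFP+ arrays (-9.98, -7.89, -2.07, -11.43 and -11.13) and on all 5 GFP-RFP- arrays (-5.56, -0.17, 0.85, -0.16 and -3.27). Replicate 3 of GFP-RFP+ cells again lay among the GFP-RFP- arrays, and the difference was -6.84 ± 2.40 (adjusted p = 0.12). With that 1 array left out, 5 members were called in place of 1, all lower: Dld, Fh1, Mdh1, Pgk1 and Suclg2. In the same fit 5.59% of all genes were called (1152 of 20620). Replicate 3 of GFP-RFP+ cells had 39.4% of probes detected, against 22.01% to 31.69% on the other arrays of its group.

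All 4 tested genes of pyruvate entry had values below 0 here, and none was called with the brightest probe. Dld is the E3 subunit that the pyruvate and 2-oxoglutarate dehydrogenase complexes share. Its brightest probe gave -9.82, -10.16, -1.15, -11.16 and -6.94 in GFP-RFP+ cells, against -0.66, -2.45, -0.67, -2.96 and 0.10 in GFP-RFP- cells. It was detected on 2 of 5 and on 5 of 5 arrays, and the difference was -6.52 ± 2.01 (limma, adjusted p = 0.09). Dld was called with slide as a block (-7.07, adjusted p = 0.044), with the percentile over all probes (-5.21, 0.042), after normexp (-3.76, 0.036) and with its probes averaged (-5.93, 0.042). Slide as a block, the percentile over all probes and normexp also raised the calls over all genes, with counts given in the last section. A second Dld probe, at chr12:32016889-32016948 on the minus strand, read -9.89, -10.10, -2.52, -11.31 and -10.70 in GFP-RFP+ cells, against -3.16, -3.30, -3.40, -4.47 and -3.50 in GFP-RFP- cells. With each probe tested on its own, that probe was lower in GFP-RFP+ cells by a difference of -5.34 ± 1.28 (adjusted p = 0.046), with replicate 3 again apart. Pdk1, the kinase that inactivates pyruvate dehydrogenase, differed by -4.17 ± 1.66 (adjusted p = 0.16), Pdhb (E1 beta) by -2.57 ± 1.70 and Pdha1 (E1 alpha) by -1.23 ± 2.04 (adjusted p 0.38 and 0.76). With the share of probes detected added as a covariate the Dld difference was -0.94 (adjusted p = 0.90) and that of Mdh1 -1.45 (adjusted p = 0.67). This fit cannot tell the share apart from the reporter, since the share differed between the groups.

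**Figure D2:**
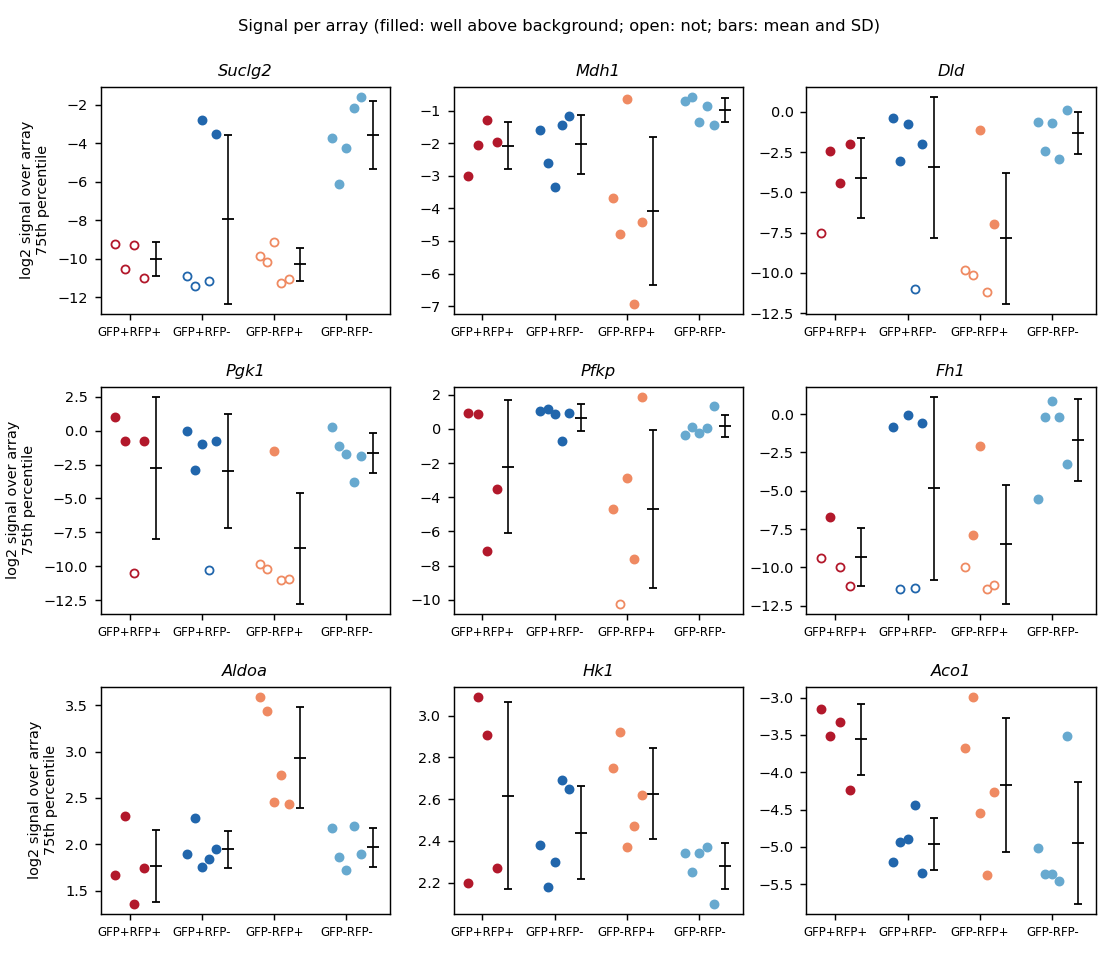
Log2 signal relative to the array's 75th percentile (y axis, a scale of its own for each gene) on each array of the 4 groups (x axis) for 9 members; filled points were well above background, open points were not, and the bars give the mean and SD over 4 or 5 arrays. Suclg2 is open on all 9 RFP+ arrays and filled on the 5 GFP-RFP- arrays, and 1 GFP-RFP+ array (replicate 3) stands above the others for Mdh1, Dld, Pgk1 and Fh1.

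Glycolysis gave 0 called genes of 16 tested between GFP-RFP+ and GFP-RFP- cells, with 9 lower and 7 higher, and 3 of these reached an unadjusted p under 0.05. Pgk1, phosphoglycerate kinase 1, which makes the first ATP of the payoff phase, was detected on 1 of 5 GFP-RFP+ arrays (-9.80, -10.19, -1.47, -11.03 and -10.92) and on 5 of 5 GFP-RFP- arrays (0.28, -1.16, -1.72, -3.79 and -1.89). The groups overlapped through replicate 3 of GFP-RFP+ cells, and the difference was -7.03 ± 2.34 (limma, adjusted p = 0.11). The files place this probe at chr3:57906830-57906894, whereas the RefSeq table has Pgk1 on the X chromosome, so its gene is uncertain. Pfkp, the platelet type of phosphofructokinase at the committed step, gave -4.68, -10.22, -2.90, -7.62 and 1.87 in GFP-RFP+ cells, against -0.35, 0.10, -0.23, 0.04 and 1.31 in GFP-RFP- cells. All GFP-RFP+ arrays except replicate 5 were below the lowest GFP-RFP- array, and the difference was -4.88 ± 1.81 (adjusted p = 0.14). A second Pfkp probe differed by -2.93 ± 1.72 (adjusted p = 0.33).

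Aldoa, aldolase A, stood on the other side. Its log2 signals were 3.59, 3.44, 2.46, 2.75 and 2.43 in GFP-RFP+ cells, against 2.18, 1.86, 1.72, 2.20 and 1.89 in GFP-RFP- cells. Every GFP-RFP+ array was above every GFP-RFP- array, and the difference of 0.96 ± 0.33 was not called (limma, adjusted p = 0.12). Without the scaling to the array's 75th percentile the groups overlapped, with intensities of 39000 to 64600 in GFP-RFP+ cells and 43000 to 69400 in GFP-RFP- cells. That percentile averaged 7020 and 14900 in the same groups. Aldoa and Suclg2 were the 2 members of 34 without overlap here, against 6.67% of all genes tested (4.09% higher and 2.58% lower). The Aldoa difference was 2.27 with an adjusted p of 0.027 when arrays were set to the 75th percentile over all probes, and 0.46 with 0.34 after quantile normalization. Both settings also raised the calls over all genes, most of them higher, with counts given in the last section.

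None of the other genes detected on all 19 arrays was called between GFP-RFP+ and GFP-RFP- cells. Hk1 ranged from 2.37 to 2.92 in GFP-RFP+ cells and from 2.10 to 2.37 in GFP-RFP- cells (difference 0.34 ± 0.30, adjusted p = 0.52). Gapdh ranged from -1.17 to 1.86 and from 0.75 to 1.27 in the same groups (-0.11 ± 0.48, adjusted p = 0.92), and Pkm from 1.10 to 2.36 and from 0.87 to 1.60 (0.57 ± 1.11, adjusted p = 0.80). A p above the threshold does not show that the levels were equal. Gpi1 differed by 0.50 ± 0.41, Eno1 by 0.28 ± 0.59 and Eno2 by -0.19 ± 0.63 (adjusted p 0.49, 0.82 and 0.88). In the citrate cycle set Aco1 differed by 0.77 ± 0.48, Idh3g by -0.79 ± 1.53 and Idh3b by -4.21 ± 1.98 (adjusted p 0.35, 0.80 and 0.22). Idh3b lay between -6.65 and 1.10 on the 5 GFP-RFP+ arrays and between 0.45 and 1.13 on the 5 GFP-RFP- arrays.

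Some genes had several probes. All 8 Gapdh probes were lower in GFP-RFP+ than in GFP-RFP- cells, by -3.87 to -0.11, with a smallest adjusted p of 0.15. The RefSeq table also lists other genes under the accessions of 7 of these probes, so Gapdh levels are uncertain. The 3 Gpi1 probes lie within a few bases of each other and gave 0.32 to 0.50. The Hk1 probes shown above disagreed: the brightest, with both AATAAA motifs, gave 0.34 ± 0.31, the other one shown gave -4.59 ± 2.62 and the one not shown -1.17 ± 2.26 (adjusted p 0.55, 0.32 and 0.80, each probe tested on its own). Tpi1, triosephosphate isomerase, gave 1.76 ± 1.34 with the probe shown and -4.36 ± 2.24 with a second one at chr6:124760947-124761006 (adjusted p 0.47 and 0.27). Ldha, lactate dehydrogenase A, gave -3.21 to 0.33 over 3 probes. Ogdh (2-oxoglutarate dehydrogenase E1), Pdhb, Pfkp and Dld had the same sign on all of their probes, and all were lower.

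**Figure D3:**
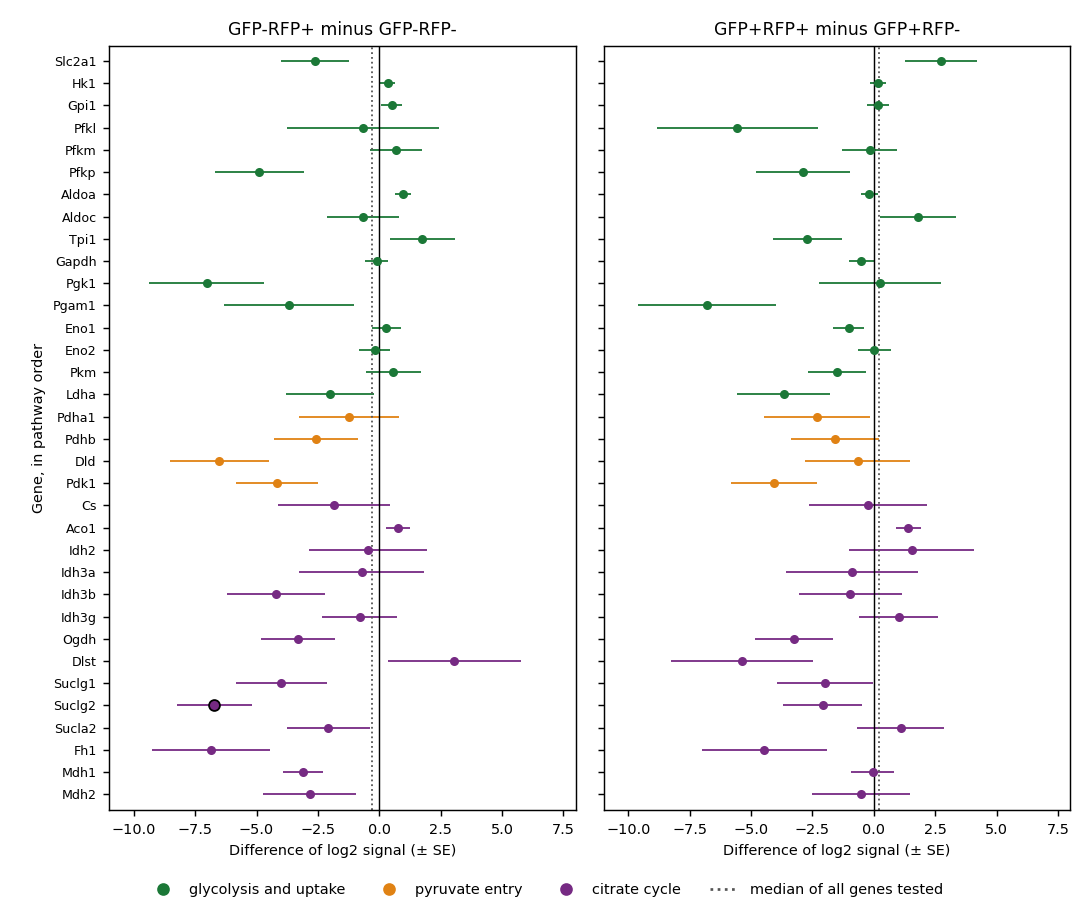
Difference of log2 signal (x axis, ± SE from limma) for the 34 tested genes in pathway order (y axis), GFP-RFP+ minus GFP-RFP- cells on the left and GFP+RFP+ minus GFP+RFP- cells on the right; the dotted line is the median of all 20620 genes and a black edge marks the called gene, Suclg2. On the left 12 of 14 citrate cycle genes and all 4 of pyruvate entry lie below 0, and 9 of 16 glycolysis genes do.

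Set side by side, the citrate cycle and pyruvate entry lay further below 0 than glycolysis between GFP-RFP+ and GFP-RFP- cells. The median log2 difference was -0.15 over the 16 glycolysis genes tested, -3.37 over the 4 of pyruvate entry (all 4 lower) and -2.46 over the 14 of the citrate cycle (12 lower), against -0.29 over all 20620 genes. Of all 34 members 25 were lower, against 57.1% of all genes, and 11 reached an unadjusted p under 0.05 (10 lower, 1 higher), against 22.6% of all genes. Of those 11, 6 were citrate cycle genes, 2 were of pyruvate entry and 3 of glycolysis. Split by detection, the 7 glycolysis genes detected on all arrays had a median of 0.34 and the other 9 had -2.0, while the 4 citrate cycle genes detected on all arrays had -1.95 and the other 10 had -2.46. Over all genes the medians were 0.23 for the 5680 detected on all arrays and -0.70 for the other 14940. These medians have no test of their own.

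The scale of the arrays moved all medians together. With the percentile taken over all probes, the median over all genes was 1.02 in place of -0.29, that of glycolysis 1.15 and that of the citrate cycle -1.16. That percentile lay near background on weak arrays. It was an intensity of 18.81 on replicate 1 of GFP-RFP+ cells (22.01% of probes detected) and 15.26 on replicate 4 (24.58%). The citrate cycle median stayed below 0 and below that of all genes under the 9 alternatives for which it was computed, from -2.46 to -1.14. The sign of the glycolysis median was not stable, from -1.64, with each probe tested on its own and the probe of smallest p taken for each gene, to 1.15. Without the 3 arrays of low detection the medians were -0.00 for glycolysis, -2.16 for the citrate cycle and -0.02 for all genes, and 0 members were called.

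**Figure D4:**
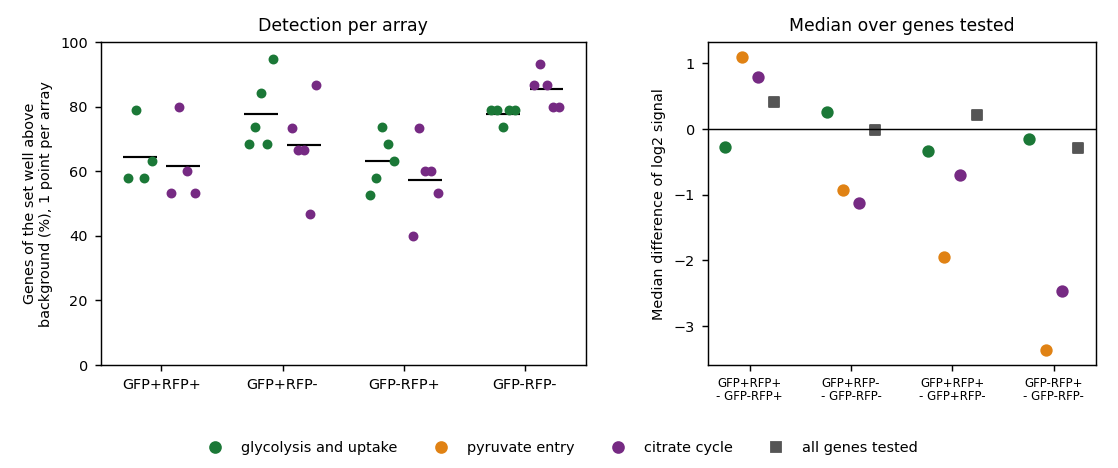
Left, percent of the 19 glycolysis and 15 citrate cycle genes well above background on each array (points) with the group mean (line); right, the median log2 difference of the 16, 4 and 14 tested genes of each set and of all 20620 genes in the 4 comparisons (x axis, first group minus second). The GFP-RFP- arrays lie above the GFP-RFP+ arrays for the citrate cycle, and the pyruvate entry and citrate cycle medians of GFP-RFP+ minus GFP-RFP- are the lowest at -3.37 and -2.46.

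The same question was then put to the cells that carry the green signal, comparing GFP+RFP+ with GFP+RFP- cells. No member was called (0 of 34, against 0.204% of all genes by limma, 42 of 20620, with 0.116% lower and 0.0873% higher), and 3 reached an unadjusted p under 0.05, against 17.4% of all genes. Aco1 was the member with the smallest p and the only one whose groups did not overlap (7.81% of all genes had no overlap, 6.36% higher and 1.45% lower). Its log2 signals were -3.15, -3.52, -3.33 and -4.24 in GFP+RFP+ cells, against -5.20, -4.93, -4.90, -4.44 and -5.35 in GFP+RFP- cells. The difference was 1.41 ± 0.51 (limma, adjusted p = 0.18), and it was called only after normexp background correction. Without the scaling to the array's 75th percentile the groups overlapped, with Aco1 intensities of 316 to 511 in GFP+RFP+ cells and 323 to 503 in GFP+RFP- cells. That percentile averaged 5270 and 12800 in the same groups. In the cells without the IL-2 reporter Aco1 overlapped between groups, with -3.68, -2.99, -4.55, -5.38 and -4.26 in GFP-RFP+ cells and -5.02, -5.37, -5.36, -5.46 and -3.52 in GFP-RFP- cells.

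Pgam1, phosphoglycerate mutase 1, was detected on 1 of 4 GFP+RFP+ arrays and on all 5 GFP+RFP- arrays. It read -9.31, 0.13, -9.15 and -10.99 in GFP+RFP+ cells, against -0.18, -0.41, -2.43, -0.12 and 0.38 in GFP+RFP- cells. Replicate 3 of GFP+RFP+ cells lay among the GFP+RFP- arrays, and the difference was -6.78 ± 2.81 (limma, adjusted p = 0.23). Pdk1 read -9.16, -9.32, -6.53 and -10.96 in GFP+RFP+ cells, against -2.11, -4.04, -5.17, -9.95 and -3.37 in GFP+RFP- cells. Only replicate 4 of GFP+RFP- cells fell among the GFP+RFP+ arrays, and the difference was -4.06 ± 1.76 (adjusted p = 0.25). Ogdh read -8.29, -7.75, -7.55 and -5.58 in GFP+RFP+ cells, against -2.96, -1.49, -3.66, -9.82 and -2.34 in GFP+RFP- cells, with the same replicate 4 apart. Its difference was -3.24 ± 1.60 (adjusted p = 0.31).

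Ldha, which makes lactate, read -8.03, -0.59, -0.77 and -2.44 in GFP+RFP+ cells, against 0.87, 0.15, -0.73, 2.44 and 0.78 in GFP+RFP- cells (difference -3.66 ± 1.89, limma adjusted p = 0.32). All 3 Ldha probes were lower, by -3.66 to -0.72. Tpi1 read -7.07, -7.89, -7.05 and -7.91 in GFP+RFP+ cells, against -4.89, -7.68, -1.16, -8.25 and -1.89 in GFP+RFP- cells (difference -2.70 ± 1.42, adjusted p = 0.33). Both genes overlapped between the groups. Suclg2 was detected on 0 of 4 GFP+RFP+ arrays and on 2 of 5 GFP+RFP- arrays, the groups overlapped, and it was not called (adjusted p = 0.52). Mdh1 differed by -0.04 ± 0.87 here. Dld differed by -0.66 ± 2.13 with its brightest probe and by -3.24 ± 1.36 with the second one (adjusted p 0.91 and 0.25, each probe tested on its own). By sets, the medians were -0.34 for glycolysis (10 of 16 lower), -1.95 for pyruvate entry (4 of 4 lower) and -0.70 for the citrate cycle (10 of 14 lower), against 0.22 over all genes, of which 44.1% were lower.

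The IL-2 reporter was compared next, in cells without the Foxp3 reporter. This comparison shares its groups with the ones above, so its values are given beside them and not as further evidence. Between GFP+RFP- and GFP-RFP- cells 0 of 34 members were called, against 0.0097% of all genes (2 of 20620, limma), and 3 reached an unadjusted p under 0.05, against 5.14% of all genes. Suclg2 had a difference of -4.38 ± 1.52 (adjusted p = 0.79), and was detected on 2 of the 5 GFP+RFP- arrays and on each GFP-RFP- array. Slc2a1, the glucose transporter GLUT1, read -10.43, -9.94, -7.07, -8.37 and -5.92 in GFP+RFP- cells, against -3.57, -6.65, -3.01, -2.95 and -8.64 in GFP-RFP- cells. The groups overlapped, and the difference was -3.38 ± 1.38 (adjusted p = 0.94). Tpi1 read -4.89, -7.68, -1.16, -8.25 and -1.89 in GFP+RFP- cells, against -8.29, -8.33, -8.27, -7.47 and -8.89 in GFP-RFP- cells. Its difference was 3.48 ± 1.34 (adjusted p = 0.90), and its second probe gave -1.77 ± 2.24. No member's groups were free of overlap, against 2.4% of all genes (1.69% higher and 0.703% lower).

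Aldoc, the brain type of aldolase, read -10.36, -10.48, -11.12, -10.62 and -8.38 in GFP+RFP- cells, against -7.96, -1.57, -10.72, -10.84 and -9.14 in GFP-RFP- cells. It was detected on replicate 5 alone in GFP+RFP- cells and on 3 arrays in GFP-RFP- cells, the groups overlapped, and the difference was -2.14 ± 1.47 (limma, adjusted p = 1.00). Fh1 read -0.86, -11.43, -0.05, -11.31 and -0.58 in GFP+RFP- cells, where replicates 2 and 4 were not detected, and its difference was -3.19 ± 2.40. Mdh1 read -1.58, -2.62, -3.33, -1.45 and -1.18 in GFP+RFP- cells, with a difference of -1.05 ± 0.82. The glycolysis median was 0.26 (11 of 16 higher), that of pyruvate entry -0.93 and that of the citrate cycle -1.12 (11 of 14 lower), against -0.02 over all genes, of which 51.3% were lower. Neither Ldha (0.73 ± 1.78) nor Hk1 (0.16 ± 0.30), Gapdh (0.36 ± 0.48) or Pkm (0.05 ± 1.11) was called (adjusted p 1.00 each).

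Among RFP+ cells, GFP+RFP+ against GFP-RFP+, 0 of 34 members were called, against 0.00485% of all genes (1 of 20620, limma), and 4 reached an unadjusted p under 0.05, against 5.4% of all genes. Aldoa had the smallest p and was the only member without overlap (1.02% of all genes had none, 0.815% higher and 0.204% lower). It read 1.67, 2.30, 1.36 and 1.74 in GFP+RFP+ cells, against 3.59, 3.44, 2.46, 2.75 and 2.43 in GFP-RFP+ cells. The difference was -1.16 ± 0.35 (adjusted p = 0.72). In GFP+RFP- cells Aldoa lay between 1.76 and 2.28, and in GFP-RFP- cells between 1.72 and 2.20. Dlst was detected on 1 of 4 GFP+RFP+ arrays (-9.33, 0.35, -10.69 and -11.06) and on 5 of 5 GFP-RFP+ arrays (1.75, -3.61, 0.37, -1.01 and 1.82). Its difference was -7.55 ± 2.88 (adjusted p = 0.81), opposite to the sign of most citrate cycle genes here.

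Pgk1 read 1.01, -0.75, -10.47 and -0.74 in GFP+RFP+ cells, against 1 detected value of -1.47 among the 5 GFP-RFP+ arrays given above, and its difference was 5.94 ± 2.48 (limma, adjusted p = 0.89). Mdh1 read -3.02, -2.05, -1.28 and -1.96 in GFP+RFP+ cells, and its difference to GFP-RFP+ cells was 2.01 ± 0.87 (adjusted p = 0.91). Both genes overlapped between the groups. Dld read -7.50, -2.46, -4.43 and -2.0 in GFP+RFP+ cells, and differed by 3.75 ± 2.13 (adjusted p = 0.93). Pkm differed by -2.0 ± 1.18 (adjusted p = 0.93). The Pkm value rests on 1 array: replicate 1 of GFP+RFP+ cells read -6.10, against 1.58, 1.73 and 2.19 on the other 3 and 2.36, 1.45, 1.10, 2.0 and 2.34 in GFP-RFP+ cells, and without the arrays of low detection the difference was 0.20. The set medians were -0.28 for glycolysis (11 of 16 lower), 1.10 for pyruvate entry and 0.80 for the citrate cycle (11 of 14 higher), against 0.41 over all genes, of which 30.8% were lower.

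Whether the Foxp3 reporter difference itself differed with the IL-2 reporter was tested as an interaction, the difference in GFP+ cells minus that in GFP- cells. No member was called (0 of 34, against 0.0097% of all genes), and 6 reached an unadjusted p under 0.05, against 4.92% of all genes. They were Slc2a1 (5.36 ± 2.01), Mdh1 (3.06 ± 1.2), Aldoa (-1.14 ± 0.49), Tpi1 (-4.47 ± 1.96), Pgk1 (7.28 ± 3.40) and Dlst (-8.43 ± 3.96), all with an adjusted p of 1.00 in limma. The median was 2.0 over the citrate cycle genes (12 of 14 above 0) and -0.62 over the glycolysis genes, against 0.40 over all genes. Of all 34 members 14 were below 0, against 36.4% of all genes. A difference in one pair of groups that was not called in the other is therefore not shown to differ between them.

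The members not yet described were each detected on only some of the 19 arrays. Pfkl differed by -0.66 ± 3.09 between GFP-RFP+ and GFP-RFP- cells and by -5.55 ± 3.28 between GFP+RFP+ and GFP+RFP- cells, and 1 of the 4 GFP+RFP+ arrays detected it, as did 4 of 5 arrays in each other group. Pfkm, the muscle type of phosphofructokinase, was detected on 5 arrays in all, with differences of 0.69 ± 1.05 and -0.16 ± 1.12 in the same comparisons. Cs, citrate synthase, at the entrance of the cycle, was detected on 8 arrays, at most 3 in any group, and differed by -1.84 ± 2.27 and -0.24 ± 2.40. The mitochondrial enzymes Idh2 (isocitrate dehydrogenase) and Mdh2 (malate dehydrogenase) were detected on 6 and 8 of 19 arrays, and differed by -0.46 ± 2.39 and -2.84 ± 1.89 between GFP-RFP+ and GFP-RFP- cells. Idh3a, the alpha subunit of NAD isocitrate dehydrogenase, was detected on 16 arrays and differed by -0.72 ± 2.53 there. None of these was called in any of the 4 comparisons.

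Other genes of the same pathways were read from 3 lists, chosen with earlier results of these data known. Of 25 further genes of glycolysis and glucose handling 13 were tested and 0 were called in any comparison. Their median between GFP-RFP+ and GFP-RFP- cells was -0.69 (10 of 13 lower), against -0.29 over all genes (57.1% lower, and 1.7% called). Bpgm, which makes 2,3-bisphosphoglycerate, read -9.21, -9.51, -10.64 and -2.86 in GFP+RFP+ cells, against -0.15, -0.69, -1.76, 0.86 and 0.01 in GFP+RFP- cells. These groups did not overlap, as was so for 1.45% of all genes in the lower direction. The difference was -7.71 ± 1.70 (limma, adjusted p = 0.065). Where the green signal was absent, Bpgm was detected on every array. There its mean was -1.21 with the red signal, against -1.56 without it, so it was not lower in that RFP+ group. Eno3, the muscle enolase, differed by 5.95 ± 2.29 between GFP+RFP+ and GFP-RFP+ cells (adjusted p = 0.81).

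Of 19 further genes of pyruvate handling and the citrate cycle 16 were tested, and 1 was called, lower in GFP-RFP+ than in GFP-RFP- cells. Of all genes tested 1.23% were called lower there. It was Sdhb, the iron-sulfur subunit of succinate dehydrogenase, which takes up the product of the Suclg2 step. Sdhb read -9.29, -9.75, -9.47, -10.64 and -8.88 in GFP-RFP+ cells, none well above background, against -2.98, -1.85, -2.05, -1.50 and -1.97 in GFP-RFP- cells. It was at least 104-fold lower in GFP-RFP+ cells (log2 difference -7.54 ± 1.48, limma adjusted p = 0.023), with -4.18 and an adjusted p of 0.17 when the gene's probes were averaged. In GFP+RFP+ cells Sdhb read -9.00, -2.42, -7.39 and -8.04, against -7.50, -2.35, -1.21, -9.73 and -1.44 in GFP+RFP- cells, and these groups overlapped. The median of the 16 genes between GFP-RFP+ and GFP-RFP- cells was -2.29 (12 lower), against -0.29 over all genes (57.1% lower).

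Of 12 regulators of glycolysis 9 were tested, and Egln1 and Hif1a were called lower in GFP-RFP+ than in GFP-RFP- cells, against 1.23% of all genes. Egln1 is the oxygen-sensing prolyl hydroxylase that marks the Hif1a protein for destruction, and Hif1a is the hypoxia factor that turns on glycolysis genes. Egln1 read -9.77, -9.24, -10.71, -10.30 and -10.54 in GFP-RFP+ cells, none well above background, against -2.14, -6.92, -3.12, -4.06 and -4.97 in GFP-RFP- cells. It was at least 26.5-fold lower (log2 difference -5.87 ± 1.16, limma adjusted p = 0.023). Egln1 was detected on 5 GFP-RFP- arrays, 3 GFP+RFP- arrays and no RFP+ array, so it passed the filter only through GFP-RFP- cells. Hif1a read -9.97, -9.95, -6.48, -11.23 and -11.05 in GFP-RFP+ cells, with replicate 3 alone detected, against -5.80, -5.74, -4.45, -4.21 and -5.40 in GFP-RFP- cells. The difference was -4.62 ± 1.07 (adjusted p = 0.039). The list's median was -4.22 (8 of 9 lower) there and -3.87 (8 of 9 lower, 0 called) between GFP+RFP+ and GFP+RFP- cells. Over all genes the medians were -0.29 (57.1% lower) and 0.22 (44.1% lower) in the same comparisons. Without the 3 arrays of low detection the adjusted p was 0.077 for Sdhb, 0.075 for Egln1 and 0.11 for Hif1a, and with the share of probes detected added as a covariate 0.48, 0.42 and 0.57. The covariate differed between the groups, so its part and that of the reporter cannot be told apart.

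Markers of other cells were read on the same arrays. The 8 myeloid and dendritic markers summed to 1320% to 2710% of the array's 75th percentile in GFP+RFP+ cells, 716% to 1260% in GFP+RFP- cells, 1020% to 2390% in GFP-RFP+ cells and 801% to 1100% in GFP-RFP- cells. The ranges of GFP+RFP+ and GFP+RFP- cells did not overlap. In GFP+RFP+ cells these sums lay above those of the T cell identity genes (404% to 697%), whereas the ranges overlapped in every other group. Sums over different probes do not give shares of cells. Of the 8 myeloid and dendritic markers 5 to 6, 5 to 6, 3 to 6 and 4 to 7 were detected per array in the same 4 groups, Itgax on no array, and none was called. Of the B cell markers 3 to 4, 4 to 6, 2 to 5 and 4 to 7 were detected per array, and Ms4a1 only on arrays of GFP-RFP- cells. The 8 B cell markers summed to 14.4% to 96.9%, 47.6% to 230%, 17.3% to 144% and 34.2% to 133%. Of the 6 that were tested, Cd79b was called lower in GFP-RFP+ than in GFP-RFP- cells (-6.34 ± 1.51, limma adjusted p = 0.043), against 1.23% of all genes. Of 6 proliferation genes 3 to 4, 3 to 5, 0 to 5 and 4 to 6 were detected per array. Of 8 markers of NK and CD8 T cells 2 to 4, 3 to 6, 2 to 5 and 3 to 5 were detected, and of 7 erythroid and platelet markers 2 to 3, 2 to 3, 1 to 3 and 2 to 3. The part of these cells in the values of the glycolysis and citrate cycle genes was not tested.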

How the data were processed

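Amplified, Cy3-labelled cDNA from 19 samples was hybridised to 1-colour Agilent arrays of 62976 spots, of which 3671 are controls (global PCR amplification, per the labels' protocols). The deposited intensity values (processed signal) were background-subtracted and spatially detrended by the scanner software, per the file headers, with no scaling between arrays. The submitters' processing notes name Agilent Feature Extraction 10.7.3.1. The authors' deposited value table for the series holds log2 values, and how they were normalized stays unknown (column medians 3.21 to 3.226, r with the scanner values 0.949 to 1, 1018 missing cells). It served as an alternative only.

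Spots of 1 probe were averaged after 3296 outlier-flagged spots were left out, and log2 intensities were set to each array's 75th percentile, taken over 6612 probes detected on every array. Of 55681 probes 28101 were well above background on at least 4 arrays. Each gene was represented by its brightest probe, 27235 probes were named through RefSeq accessions, and 20620 genes entered 1 limma model (3.58.1, R 4.3.3; lmFit and eBayes) with Benjamini-Hochberg adjustment at 0.05. The scripts were tested on simulated data and also used the data.table package (1.17.8), Python 3.11.15, numpy 2.4.6, scipy 1.17.1, pandas 2.3.3 and matplotlib 3.10.9. The members, gene lists and tests were chosen with earlier results of these data known. Values per array are given for called members and, in each pairwise comparison, for the 3 glycolysis and the 3 pyruvate or citrate cycle genes with the smallest p, and for the other lists for called genes or those with the smallest p. Coordinates are of mm9, as in the files, and no mm9 annotation was used, so exons are not stated. The p75 and detection tests over arrays were exact two-sided permutation tests. The alternatives are other scalings, background correction, filters, probe rules, batch blocks, a covariate and left-out arrays.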

Additional observations from a re-analysis of the deposited data

Results flagged for a closer look

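Single arrays that stood far from the others of their group were looked for in the log2 signals of the named members, by the gap to the nearest array over the group's range. This picked out 19 of 88 groups, all 19 of them in the signals of named members, and many members share the same arrays. Chance picks about 1 in 20 where values are normally distributed, which signals split between background and detection are not. Replicate 4 of GFP+RFP- cells was lowest of its group for Dld (-11.02), Pgk1 (-10.28), Ogdh (-9.82), Dlst (-11.16) and Pfkp (-0.71), and it had the smallest share of probes detected in its group (30.17%). Replicate 5 of GFP-RFP- cells was lowest for Dlst (-11.98) and Pgam1 (-11.98) and highest for Pfkp (1.31) and Aco1 (-3.52). Replicate 3 of GFP-RFP+ cells, the array of its group with most probes detected (39.4%), was highest for Pgk1 (-1.47) and Tpi1 (-1.73).

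In GFP+RFP+ cells, replicate 1 was lowest for Pkm (-6.10), replicate 4 was lowest for Pgk1 (-10.47), and replicate 3 was highest for Dlst (0.35) and Pgam1 (0.13). Among GFP+RFP- cells, replicate 1 was lowest for Pkm (0.83), replicate 3 was lowest for Pgam1 (-2.43) and replicate 5 was highest for Aldoc (-8.38). Replicate 4 of GFP-RFP+ cells was highest for Aldoc (-5.73). The part of array quality in these values was not tested.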

How the results depend on the processing

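The number of members called lower or higher between GFP-RFP+ and GFP-RFP- cells was 1, and 4 with the percentile over all probes (Aco1, Aldoa, Dld and Suclg2) or normexp background correction (Aldoa, Dld, Mdh1 and Suclg2), 2 after quantile normalization or with the authors' series table (Aco1 and Suclg2), 2 over probes detected on all arrays (Aldoa and Mdh1), 2 with averaged probes or with every probe on its own (Dld and Suclg2) and 3 with slide as a block (Dld, Pgk1 and Suclg2). It was 0 with the share of probes detected added as a covariate and without the 3 arrays of low detection, and 0 to 5 with 1 array left out. It was also 0 within each of the 3 slides, but with 1 or 2 arrays of each group on a slide these fits could hardly give a call. Over all genes the calls in that comparison were 351 (97 higher), and 4030 (3512 higher) with the percentile over all probes, 4749 (4003 higher) with normexp, 3520 (2892 higher) after quantile normalization, 3643 (2974 higher) with the series table, 600 (529 higher) over probes detected on all arrays, 1236 (689 higher) with slide as a block, 5 with the covariate and 27 without the arrays of low detection. Between GFP+RFP+ and GFP+RFP- cells they were 42 (18 higher), and 10 (0 higher) with the percentile over all probes, 26 (7 higher) by quantile, 23 (5 higher) with the series table, 108 with no filter, 138 with slide as a block and 12 with scan day as a block; only normexp gave 1 member (Aco1, among 4888 genes, 4606 higher). In the other comparisons 0 members were called under all of these settings, with 0 to 5 genes between GFP+RFP- and GFP-RFP- cells and 0 to 11 between GFP+RFP+ and GFP-RFP+ cells. The glycolysis median between GFP-RFP+ and GFP-RFP- cells was -1.64 with each probe tested on its own and the probe of smallest p taken for each gene, a choice that depends on the outcome.

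The sample titles use the same replicate numbers in every group. Of 27 same-numbered pairs 0 had a correlation of deviations over 0.1 (median 0.013), against 4 of 108 differently numbered pairs. Of 19 arrays 6 were closest to their own number. With many signals near background, such correlations cannot exclude that same-numbered samples share a source. With the replicate number as a block 0 members were called between GFP-RFP+ and GFP-RFP- cells (Suclg2 adjusted p = 0.053), with 198 genes in all, and 8 genes were called between GFP+RFP+ and GFP+RFP- cells.

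Values of opposite sign were found in these cases, and the cause was not tested. On all slides, Pkm was 0.20 between GFP+RFP+ and GFP-RFP+ cells without the arrays of low detection, and with normexp Tpi1 was -0.82 between GFP+RFP- and GFP-RFP- cells and 0.40 between GFP+RFP+ and GFP+RFP- cells. Within slides the others rest on 1 or 2 arrays of a group and show no direction. With 1 array against 1, between GFP+RFP+ and GFP-RFP+ cells on slide 2, Pgk1 was -0.29 (neither array above background) and Pkm 0.28, and between GFP+RFP- and GFP-RFP- cells on slide 3, Fh1 was 2.69, Mdh1 0.25, Slc2a1 2.72 and Aldoc 0.76. With 1 array against 2, Pkm was 0.02 between GFP+RFP+ and GFP-RFP+ cells on slide 3, and between GFP+RFP+ and GFP+RFP- cells on slide 2, Pdk1 was 0.47 and Tpi1 0.92. With 2 against 2, Mdh1 was -0.37 between GFP+RFP+ and GFP-RFP+ cells on slide 1, and between GFP+RFP- and GFP-RFP- cells, Fh1 was 1.90 on slide 1 and Tpi1 -0.07 on slide 2. Of 319 values of named members under alternatives on all slides, 301 kept direction and side of the threshold. Signal near background limits most differences: 61 of 136 gene and group combinations were detected on only some arrays.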
